A study of Homo sapiens with 12 samples.

Results

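Transcripts of 9 transcription factors that set and maintain the myeloid blood lineage were followed in 2 human leukaemia cell lines with and without a hairpin RNA against CYTH4. The factors are SPI1, CEBPA, CEBPD, CEBPE, RUNX1, IRF8, GFI1, MYB and KLF4. They were chosen by gene name for their known role in myeloid cells, with earlier results of these data known. Their 9 rows were taken from a table of 34626 genes. All 9 passed the filter on low values, which asked for 3 or more libraries at 1 FPKM or above, and so stood among the 12350 genes tested. FPKM counts fragments per length of transcript and per depth of library. The length taken for each gene is not stated, so FPKM levels of different genes are set side by side with that limit. KLF4 passed through its THP-1 libraries only, since every MV4-11 library held it under 1 FPKM.

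MV4-11 and THP-1 are established lines from acute myeloid leukaemia with monocytic features, and both carry fusions of the KMT2A (MLL) gene. The labels give bone marrow as the source tissue. Each line gave 3 libraries labelled shControl, which received a control short hairpin RNA, and 3 labelled shCYTH4, whose short hairpin RNA targets CYTH4, the gene of cytohesin 4, which activates ARF GTPases. The design asks what lowering CYTH4 does to the transcriptome, and poly(A) RNA of the 12 libraries was sequenced for it. All groups carry a hairpin, and no group without one is among the 12 libraries. Neither the hairpin sequences, the number of hairpins nor the time of collection is stated, and the origin of the 3 libraries of a group is not stated either. Each p-value therefore reflects how far these samples spread among themselves, and that spread may be technical.

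SPI1 encodes PU.1, an ETS-family factor whose dose steers progenitors toward the monocyte or another fate, and it works beside the C/EBP factors at the enhancers of myeloid genes. CEBPA drives the commitment of progenitors to the granulocyte and monocyte lineages, CEBPE acts late in granulocytes, and CEBPD is induced by cytokines and inflammation. RUNX1 founds definitive blood formation, IRF8 pairs with PU.1 to favour monocytes and dendritic cells, GFI1 is a repressor that favours granulocytes, MYB keeps progenitors cycling, and KLF4 promotes monocyte differentiation. Several of these genes are mutated or rearranged in acute myeloid leukaemia.

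The libraries held 71730093 to 77782719 estimated counts, and 10251 to 11703 genes per library reached 1 FPKM. The 10 markers of monocytic leukaemia were all in the table and summed to 1834 to 2054 FPKM in MV4-11 controls, 1298 to 1385 FPKM in MV4-11 libraries labelled shCYTH4, 598 to 683 FPKM in THP-1 controls and 949 to 1082 FPKM in THP-1 shCYTH4. This sum, most of it LYZ, moved with the groups, and its part in the values below was not tested. Sums over markers of other cell types were at most 0.163 FPKM for T cells (3 of 5 in the table), 0.420 FPKM for erythroid cells (4 of 5), 2.66 FPKM for megakaryocytes (3 of 5) and 4.62 FPKM for B cells (4 of 5). The sum over epithelial and fibroblast markers (5 of 7) was 3.16 to 4.85 FPKM in MV4-11 controls, 3.73 to 4.16 FPKM with the shCYTH4 label, 1.40 to 2.09 FPKM in THP-1 controls and 0.236 to 0.460 FPKM in THP-1 shCYTH4. It was thus lower in THP-1 shCYTH4 without overlap, and its part in the THP-1 values was not tested. The targeted gene CYTH4 read 25.7, 32.2 and 21.0 FPKM in THP-1 controls and 15.7, 15.0 and 15.7 FPKM in THP-1 shCYTH4, and it fell (log2 change -0.89, SE 0.19, edgeR adjusted p = 0.0338). Leaving out 1 of 5 libraries ended that call: control replicate 1 (adjusted p = 0.0539) or 2 (0.147) of THP-1, its shCYTH4 replicate 1 (0.145) or 2 (0.126), and shCYTH4 replicate 2 of MV4-11 (0.0541). A replicate block ended it as well (log2 -0.86, adjusted p = 0.131). In MV4-11 it read 20.9, 16.0 and 18.1 FPKM in controls and 15.5, 20.7 and 22.3 FPKM in the libraries labelled shCYTH4 (log2 0.01, SE 0.19, edgeR adjusted p = 0.988), so the MV4-11 comparison is of labels and not of measured CYTH4. THP-1 shCYTH4 replicate 3 had the largest root-mean-square log2 distance to the other 2 libraries of its group, at 0.449. The other 11 libraries lay at 0.248 to 0.406. MV4-11 shCYTH4 replicate 1 came next at 0.406 and MV4-11 control replicate 1 followed at 0.380, so no clear gap set the THP-1 library apart. Calls in THP-1 are given with and without THP-1 shCYTH4 replicate 3, whereas MV4-11 shCYTH4 replicate 1 was left out only among the alternatives.

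SPI1, CEBPA and IRF8 had the highest FPKM of the 9 factors in every group, and CEBPE and KLF4 the lowest. This order is one of FPKM, and it rests on a length per gene that is not stated. Estimated counts gave another order. In MV4-11 controls IRF8 had 47397 to 52898 and SPI1 22853 to 24386, while RUNX1 had 21546 to 27101 and CEBPD 1812 to 2018. SPI1 (ENSG00000066336, chromosome 11, 47354860 to 47378547, minus strand) averaged 149 ± 10.6 FPKM in MV4-11 controls and 117 ± 11.9 FPKM in THP-1 controls (SD, n = 3 each). CEBPA (ENSG00000245848, chromosome 19, 33299934 to 33302534, minus strand) averaged 108 ± 10.5 FPKM in MV4-11 controls and 136 ± 17.9 FPKM in THP-1 controls. SPI1 lay above 98.0% of the tested genes in MV4-11 controls, and CEBPA above 98.0% of them in THP-1 controls. IRF8 (ENSG00000140968, chromosome 16, 85899116 to 85922606, plus strand) averaged 83.4 ± 4.49 and 94.9 ± 8.87 FPKM in the same groups. The interval of IRF8 overlaps that of MIR6774 on the same strand, which has a mean of 4.01 FPKM. How fragments were shared between the pair is not stated, and its part in the level of IRF8 was not tested. All positions are those of the deposited table, whose genome build is not stated.

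GFI1 (ENSG00000162676, chromosome 1, 92473043 to 92486925, minus strand) and MYB (ENSG00000118513, chromosome 6, 135181308 to 135219173, plus strand) held the middle of the order at nearly one level. GFI1 averaged 50.6 ± 2.40 FPKM in MV4-11 controls and 53.3 ± 1.16 FPKM in THP-1 controls. MYB averaged 50.6 ± 7.74 and 44.8 ± 8.75 FPKM there. RUNX1 (ENSG00000159216, chromosome 21, 34787801 to 35984749, minus strand) and CEBPD (ENSG00000221869, chromosome 8, 47736913 to 47738164, minus strand) followed. RUNX1 averaged 19.7 ± 1.55 FPKM in MV4-11 controls and 17.3 ± 2.41 FPKM in THP-1 controls, and CEBPD 19.6 ± 1.60 and 23.0 ± 0.652 FPKM.

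CEBPE (ENSG00000092067, chromosome 14, 23117036 to 23120256, minus strand) and KLF4 (ENSG00000136826, chromosome 9, 107484852 to 107489766, minus strand) closed the order. CEBPE averaged 1.30 ± 0.190 FPKM in MV4-11 controls and 1.36 ± 0.179 FPKM in THP-1 controls. It lay above only 20.3% and 16.3% of the tested genes in these groups. KLF4 averaged 0.663 ± 0.206 FPKM in MV4-11 controls and 3.33 ± 1.01 FPKM in THP-1 controls, so that it stood below CEBPE in MV4-11 and above it in THP-1, with no overlap of the libraries of the pair of genes in either.

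Neighbours in the order did not all stand apart. In MV4-11 controls the 3 libraries of GFI1 overlapped those of MYB, and those of RUNX1 overlapped those of CEBPD, while every other pair of neighbours was separate. In the MV4-11 libraries labelled shCYTH4, MYB overlapped both IRF8 above it and GFI1 below it, and RUNX1 overlapped CEBPD. In both THP-1 groups CEBPA stood first, its libraries overlapping those of SPI1, and GFI1 overlapped MYB. The order of group means in THP-1 was the same with shControl as with shCYTH4.

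**Figure D1:**
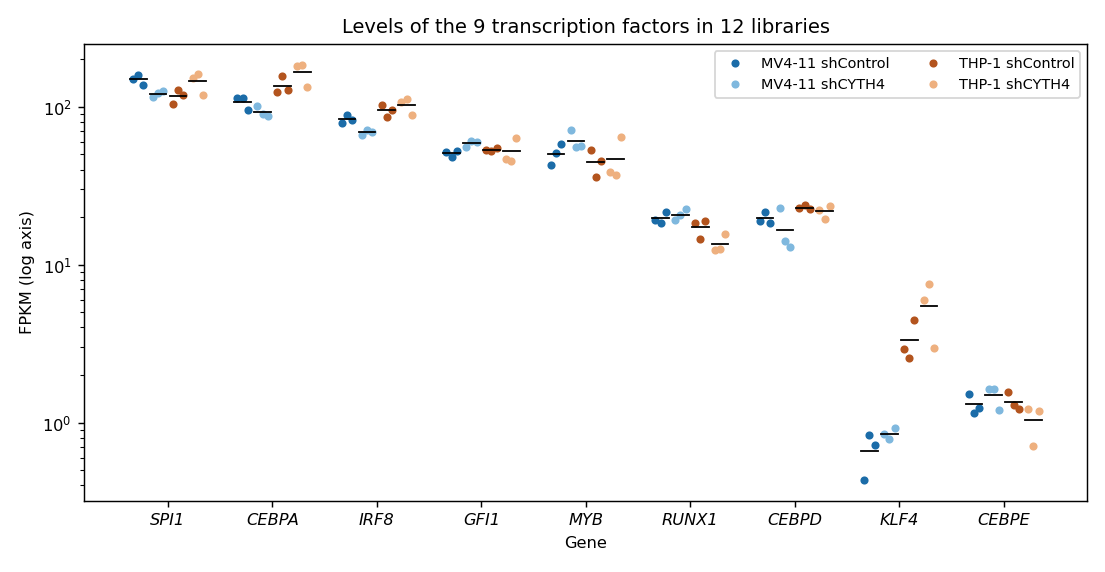
FPKM of the 9 factors on a log axis, with 1 point per library, coloured by group, and a bar at the mean of each group of 3 libraries. SPI1, CEBPA and IRF8 lie near 100 FPKM in all groups, while KLF4 lies under 1 FPKM in MV4-11 and between 2.58 and 7.49 FPKM in THP-1.

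The spread of the 9 factors between libraries of a group was as follows. The coefficient of variation of a factor within its group of 3 libraries had a median over the 9 factors of 8.16% in MV4-11 controls and 8.23% in MV4-11 libraries labelled shCYTH4. It was 13.2% in THP-1 controls and 16.9% in THP-1 shCYTH4. KLF4 in THP-1 shCYTH4 had the highest value (42.2%) and GFI1 in THP-1 controls the lowest (2.18%).

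Between the lines in their control libraries, KLF4 was far lower in MV4-11, SPI1 was modestly higher, and the other 7 factors did not pass the test. By edgeR, 2 of 9 factors were called, against 51.4% of the 12350 tested genes, and the median absolute log2 difference was 0.209 over the 9 factors and 0.505 over all tested genes. The FPKM of the lines did not overlap for 4 of 9 factors (SPI1, CEBPA, CEBPD and KLF4), against 60.6% of the tested genes. Both the share called and the median size were lower for the 9 factors than for the tested genes; that gap was not tested.

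KLF4 read 0.432, 0.830 and 0.725 FPKM in MV4-11 controls and 2.94, 2.58 and 4.48 FPKM in THP-1 controls. All 3 THP-1 libraries lay above all 3 MV4-11 libraries. The fitted difference was -2.31 on the log2 scale (SE 0.33, 95% interval -3.00 to -1.61, edgeR adjusted p = 2.75e-05), 4.94-fold lower in MV4-11. KLF4 was among the tested genes through its THP-1 libraries only, so the size of this fold rests on MV4-11 values under 1 FPKM. Over 19 alternatives the difference ran from -2.582 to -1.365.

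SPI1 read 150.2, 159 and 138 FPKM in MV4-11 controls and 104, 127 and 119 FPKM in THP-1 controls. Every MV4-11 library was above every THP-1 library. The difference was 0.37 on the log2 scale (SE 0.15, 95% interval 0.05 to 0.69, edgeR adjusted p = 0.0497), 1.29-fold higher in MV4-11. That call sits at the threshold. It was lost in 12 of 20 alternatives: with upper-quartile scaling (adjusted p = 0.0702), with no filter (0.0514), among genes with at least 1 FPKM in all 12 libraries (0.122), with a replicate block (0.191), and when any of 8 libraries was left out. These libraries were MV4-11 control replicates 1 (adjusted p = 0.126) and 2 (0.138), MV4-11 shCYTH4 replicates 2 (0.0662) and 3 (0.0598), THP-1 control replicates 1 (0.198) and 3 (0.0977), and THP-1 shCYTH4 replicates 1 (0.0623) and 2 (0.0518).

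CEBPA read 114, 114 and 95.8 FPKM in MV4-11 controls and 124, 157 and 128 FPKM in THP-1 controls. The groups did not overlap, with MV4-11 lower, but the difference did not pass the test (log2 -0.32, SE 0.16, 95% interval -0.66 to 0.03, edgeR adjusted p = 0.117). It passed with upper-quartile scaling (log2 -0.38, adjusted p = 0.0495) and among genes with at least 1 FPKM in all 12 libraries (log2 -0.41, adjusted p = 0.0371). The other 6 factors had log2 differences of -0.21 to 0.22 with adjusted p-values of 0.193 to 0.941. Their intervals leave room for modest differences: that of RUNX1 ran from -0.07 to 0.50 and that of MYB from -0.21 to 0.61.

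Since SPI1 and CEBPA lay on opposite sides between the lines, their ratio was computed after the values had been seen. SPI1 stood at 1.31, 1.40 and 1.44 times the FPKM of CEBPA in MV4-11 controls and at 0.836, 0.812 and 0.929 times in THP-1 controls. By FPKM, SPI1 was the higher of the pair in every MV4-11 library and the lower in every THP-1 library. Which side of 1 the ratio falls on depends on the lengths taken for the genes, which are not stated. The means were 1.38 ± 0.0648 and 0.859 ± 0.0621 (SD, n = 3 each), given without a test since the ratio was chosen for this separation. With shCYTH4 the ratio was 1.31 ± 0.158 in MV4-11 and 0.869 ± 0.0226 in THP-1, beside a control range of 1.31 to 1.44 and of 0.812 to 0.929, and it overlapped the controls of its line in both. Exact permutation tests, two-sided, gave p = 0.6 and 0.9, but 3 against 3 libraries cannot go below 0.1.

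KLF4 was the only factor whose 4 group means spanned at least 1 on the log2 CPM scale (2.84, against 0.25 to 0.78 for the other 8). By the root-mean-square difference of log2 CPM profiles over the 12 libraries, each centred on its own mean, the tested genes most like KLF4 were BIN1, a membrane-curving adaptor (0.292), and TNFRSF21, a death receptor (0.313). The median over all tested genes was 1.33. BIN1 read 3.60, 4.53 and 1.63 FPKM in the 3 THP-1 shCYTH4 libraries and TNFRSF21 read 7.47, 7.98 and 5.33 FPKM. For both, as for KLF4, replicate 3 was the lowest of these libraries, a likeness that the choice of these genes fixes.

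In MV4-11, no factor was called between the libraries labelled shCYTH4 and the controls. By edgeR, 0 of 9 factors passed, against 1.13% of the tested genes, and 2 of 9 (SPI1 and IRF8) had an unadjusted p under 0.05. DESeq2 and limma on log2(FPKM + 1) called 0 of 9 as well. The FPKM of the groups did not overlap for 3 of 9 factors, against 24.8% of the tested genes. These were SPI1 and IRF8, lower with the shCYTH4 label, and GFI1, higher with it.

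SPI1 read 115, 122 and 126 FPKM in the MV4-11 libraries labelled shCYTH4, all below the lowest control at 138 FPKM. The log2 change was -0.38 (SE 0.15, 95% interval -0.70 to -0.06, edgeR adjusted p = 0.268). IRF8 read 79.2, 88.1 and 83.0 FPKM in controls and 66.5, 70.7 and 69.4 FPKM with the shCYTH4 label. All 3 lay below the controls, at a log2 change of -0.35 (SE 0.12, 95% interval -0.61 to -0.09, edgeR adjusted p = 0.205). GFI1 read 51.4, 48.0 and 52.6 FPKM in controls and 55.7, 60.8 and 59.9 FPKM with the shCYTH4 label. The fit placed GFI1 at 0.14 (SE 0.13, edgeR adjusted p = 0.678), with an interval of -0.14 to 0.42 that spans 0.

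CEBPA averaged 108 ± 10.5 FPKM in controls and 92.8 ± 7.40 FPKM with the shCYTH4 label (n = 3 each), and the groups overlapped (log2 -0.30, SE 0.16, edgeR adjusted p = 0.430). CEBPD read 23.0, 14.2 and 12.9 FPKM with the shCYTH4 label, so that its replicate 1 lay above all controls (18.4 to 21.4 FPKM) and the other 2 below them. The fit placed CEBPD at -0.31 (SE 0.19, edgeR adjusted p = 0.471). Over 21 alternatives its log2 change ran from -0.60 to -0.15, with adjusted p-values of 0.0839 to 0.766. CEBPE, MYB and KLF4 had fitted log2 changes of 0.10, 0.20 and 0.28 with overlapping groups. MYB read 71.4, 55.4 and 56.1 FPKM with the shCYTH4 label. Its replicate 1 thus also lay above all controls (42.8 to 58.2 FPKM), and the other 2 lay among them. RUNX1 was at 0.00 (95% interval -0.28 to 0.28). The intervals of the 9 factors reached 0.26 to 0.68 to either side, and none of them included a change of 1 on the log2 scale in either direction.

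In THP-1, where CYTH4 itself fell, no factor passed with all libraries. By edgeR, 0 of 9 were called, against 1.65% of the tested genes, and 1 of 9 (RUNX1) had an unadjusted p under 0.05. DESeq2 called RUNX1 (log2 -0.45, adjusted p = 0.0330) and no other factor. For 0 of 9 factors were the FPKM of shCYTH4 and control libraries separate, against 23.7% of the tested genes. Without THP-1 shCYTH4 replicate 3, edgeR called 2 of 9, RUNX1 lower and KLF4 higher, against 6.76% of the tested genes.

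RUNX1 read 18.4, 14.5 and 18.9 FPKM in THP-1 controls and 12.4, 12.6 and 15.6 FPKM in THP-1 shCYTH4. Replicates 1 and 2 lay below all controls, and replicate 3 lay above the lowest control. The log2 change was -0.46 (SE 0.13, 95% interval -0.74 to -0.17, edgeR adjusted p = 0.0976), and without replicate 3 it was -0.55 (SE 0.14, edgeR adjusted p = 0.0269). Over 21 alternatives the adjusted p ran from 0.0269 to 0.356, always with RUNX1 lower in shCYTH4. Its partner CBFB had a log2 change of 0.08 (SE 0.15, edgeR adjusted p = 0.862).

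KLF4 read 5.96, 7.49 and 2.95 FPKM in THP-1 shCYTH4, against 2.94, 2.58 and 4.48 FPKM in controls. Replicates 1 and 2 exceeded every control, and replicate 3 sat among them. The log2 change was 0.61 with all libraries (SE 0.31, 95% interval -0.05 to 1.27, edgeR adjusted p = 0.361). Without replicate 3 it was 0.93 (SE 0.26, 95% interval 0.37 to 1.49, edgeR adjusted p = 0.0476), a 1.90-fold rise. Over 20 alternatives the log2 change stayed above 0, from 0.32 to 0.93, with adjusted p-values of 0.0476 to 0.793.

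The same division ran through most of the factors. Relative to the mean of the THP-1 controls, SPI1 was at log2 ratios of 0.39, 0.47 and 0.03 in shCYTH4 replicates 1, 2 and 3, and CEBPA at 0.41, 0.44 and -0.02. MYB was at -0.22, -0.27 and 0.53, and GFI1 at -0.18, -0.23 and 0.26. Replicate 3 thus lay near the controls for SPI1 and CEBPA, and on the other side of the control mean from replicates 1 and 2 for MYB and GFI1. CYTH4 did not divide so: it was at -0.75, -0.81 and -0.75. The stress factor DDIT3 read 39.5 FPKM in replicate 3 and 16.5 and 14.2 FPKM in the other 2 libraries; its part in the division was not tested.

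**Figure D2:**
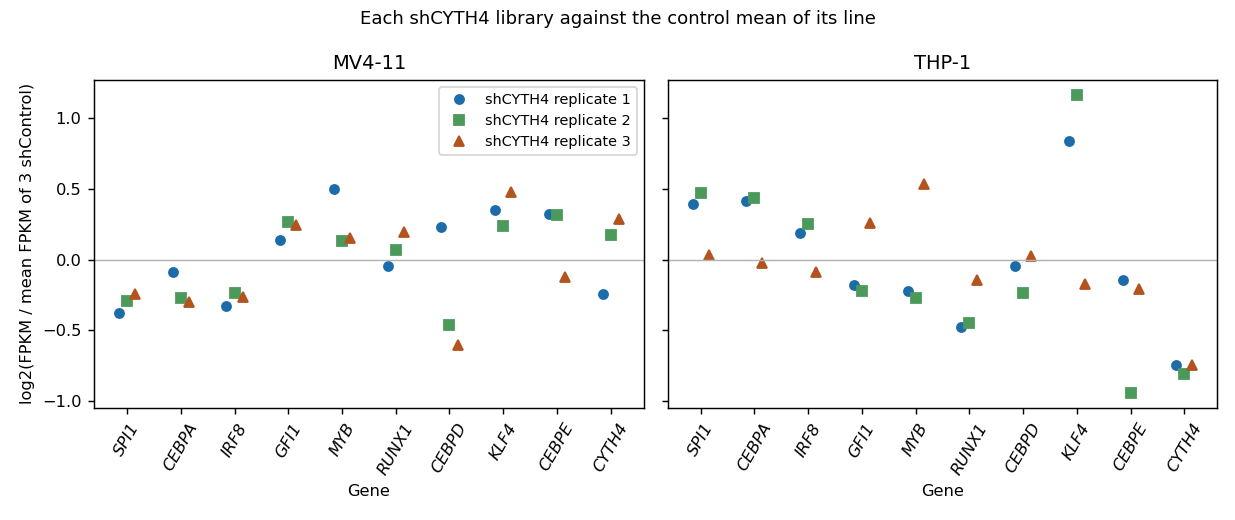
Log2 ratio of FPKM in each library labelled shCYTH4 to the mean of the 3 control libraries of the same line, for the 9 factors and CYTH4, with 1 marker per library. In THP-1, replicate 3 lies apart from replicates 1 and 2 for KLF4 (-0.17 against 0.84 and 1.17) and MYB (0.53 against -0.22 and -0.27), whereas CYTH4 lies between -0.81 and -0.75 in all 3.

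With all libraries SPI1 averaged 145 ± 22.6 FPKM and CEBPA 167 ± 28.2 FPKM in THP-1 shCYTH4, and neither passed the test (log2 0.20, SE 0.15, edgeR adjusted p = 0.584, and log2 0.17, SE 0.16, edgeR adjusted p = 0.672). Without replicate 3 the log2 changes were 0.34 and 0.33 (edgeR adjusted p = 0.164 and 0.213). GFI1 and MYB moved from -0.15 and -0.05 with all libraries to -0.29 and -0.33 without it (edgeR adjusted p = 0.161 and 0.252). IRF8 averaged 103 ± 12.5 FPKM against 94.9 ± 8.87 FPKM in controls (log2 0.02, SE 0.12, 95% interval -0.24 to 0.28; 0.13 without replicate 3). CEBPD averaged 21.7 ± 2.04 FPKM (log2 -0.20, SE 0.19; -0.23 without replicate 3). CEBPE had a log2 change of -0.50 (SE 0.28, edgeR adjusted p = 0.415; -0.58 without replicate 3), and its replicate 2 was lowest at 0.705 FPKM, against 1.23 and 1.18 FPKM in replicates 1 and 3.

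**Figure D3:**
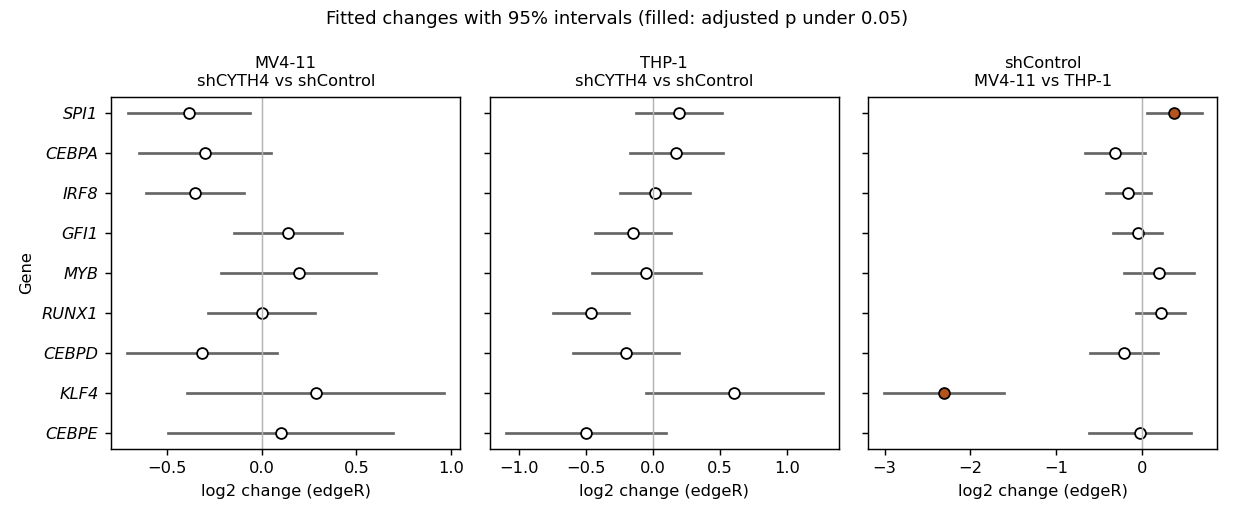
Fitted log2 changes (edgeR, all 12 libraries) of the 9 factors with 95% intervals: libraries labelled shCYTH4 against controls in MV4-11 (left) and THP-1 (middle), and MV4-11 against THP-1 in controls (right). The axes differ between panels, and filled points passed an adjusted p of 0.05, which only SPI1 (0.37) and KLF4 (-2.31) did, both in the right panel.

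Promoter windows of RUNX1 and KLF4, the factors called without replicate 3, are printed with the core letters bound by PU.1. Of the 9 factors, 7 matched the RefSeq promoter table (GRCh38.p14), with 10 starts in all. The 250 bases before each start were searched on both strands for GAGGAA. The capitals mark the match, 54 to 49 bases before the start of KLF4 on the gene's strand, and 44 to 39 bases before the start of RUNX1 on the opposite strand, where the letters read as the reverse complement. Each window is printed in the direction of its gene, chr9:107489770-107490019, minus strand, for KLF4 and chr21:34888700-34888949, minus strand, for RUNX1. The promoter table holds 1 start of RUNX1. By the positions of the deposited table it lies inside the gene, far from the 5' end at 35984749. Which start gave the measured RUNX1 transcripts is not known.
KLF4: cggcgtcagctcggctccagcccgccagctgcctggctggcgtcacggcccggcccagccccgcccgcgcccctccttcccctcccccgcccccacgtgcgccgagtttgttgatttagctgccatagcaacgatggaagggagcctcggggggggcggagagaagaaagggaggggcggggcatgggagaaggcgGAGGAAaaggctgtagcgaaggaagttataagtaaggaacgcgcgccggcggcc
RUNX1: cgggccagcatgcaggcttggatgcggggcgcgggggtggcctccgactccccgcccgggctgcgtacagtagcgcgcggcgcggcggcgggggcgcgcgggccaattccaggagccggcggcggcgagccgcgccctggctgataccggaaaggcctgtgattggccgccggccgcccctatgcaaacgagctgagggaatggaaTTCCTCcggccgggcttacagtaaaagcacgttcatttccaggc
The window of CEBPE and that of 1 of the 3 starts of GFI1 held these letters too, while those of CEBPA, IRF8 and MYB did not. Of all 35116 promoters in the table, 23.6% held the letters in the same length, so a match in a pair of windows is a description of these sequences only. The cores of other factors, sought in the same way, were TTGCNNAA for C/EBP (9.05% of all promoters; found in 1 start of GFI1), TGTGGT for RUNX (11.0%; 1 start each of IRF8 and GFI1), TAACNG for MYB (17.6%; 1 start of IRF8), CACACCC for KLF (6.63%; CEBPE), GAAA followed after 2 free bases by GAAA for IRF (3.02%) and AAATCAC for GFI1 (2.74%). The last 2 matched no window of the 7 factors, and overlaps between motifs were not removed.

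The difference between the shCYTH4 changes of the lines, MV4-11 (labels only) minus THP-1, was called for 0 of 9 factors by edgeR with all libraries, against 0.866% of the tested genes. The values with an unadjusted p under 0.05 were those of SPI1 (log2 -0.58, SE 0.21, 95% interval -1.03 to -0.13, adjusted p = 0.226) and RUNX1 (log2 0.46, SE 0.19, adjusted p = 0.274). Without THP-1 shCYTH4 replicate 3, SPI1 was called (log2 -0.71, SE 0.19, edgeR adjusted p = 0.0345), 1 of 9 factors against 7.39% of the tested genes. Over 20 alternatives this difference ran from -0.71 to -0.47, with adjusted p-values of 0.0345 to 0.489. SPI1 was then at -0.37 in MV4-11 and 0.34 in THP-1, neither of which passed by itself. CEBPA, IRF8 and RUNX1 came to -0.61, -0.47 and 0.57, with edgeR adjusted p-values of 0.0812, 0.0779 and 0.0728.

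Around the 9 factors, 7 lists of related genes held at most 1 called gene each in MV4-11 and at most 2 in THP-1 with all libraries, where 1.13% and 1.65% of all tested genes were called. The lists were cofactors and partners, relatives of the same families, other blood transcription factors, known targets of PU.1 and C/EBP, and genes tied to IRF8, to MYB or to repression by GFI1. With 5 to 23 tested genes each, they had medians of -0.09 to 0.11 on the log2 scale in MV4-11 and of -0.34 to 0.09 in THP-1, beside 0.00 and -0.01 over all tested genes. Whether a change in bulk RNA reflects fewer cells of a type or less RNA per cell cannot be told apart.

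Of the 12 tested partners and cofactors, 1 rose in MV4-11 with the shCYTH4 label (all tested genes 1.13%) and 0 passed in THP-1. BATF3, a partner of IRF8 in dendritic cells, read 0.599, 0.568 and 0.610 FPKM in MV4-11 controls and 2.21, 1.61 and 1.35 FPKM with the label. Its groups did not overlap, at a log2 change of 1.44 (SE 0.27, edgeR adjusted p = 0.0153). The call was lost without MV4-11 control replicate 2 (adjusted p = 0.0754), without shCYTH4 replicate 1 (0.0515) and with a replicate block (0.0710). Of the 18 tested relatives, 1 rose in THP-1 (all tested genes 1.65%): KLF10, a factor induced by TGF-beta, from 8.82 ± 1.36 to 14.6 ± 2.03 FPKM (log2 0.62, SE 0.15, edgeR adjusted p = 0.0474; with replicate 3 of THP-1 shCYTH4 left out, 0.70 and 0.0125). Its call was lost in 12 of 21 alternatives, among them leaving out any library other than MV4-11 control replicate 1, MV4-11 shCYTH4 replicate 1 or THP-1 shCYTH4 replicate 3 (adjusted p = 0.0636 to 0.223) and a replicate block (0.180). CEBPB, looked at after its values were seen, read 1.67, 1.42 and 1.99 FPKM in THP-1 controls and 10.2, 4.35 and 3.79 FPKM with shCYTH4, yet did not pass (log2 1.75, SE 0.42, edgeR adjusted p = 0.0579).

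Of 23 tested targets of PU.1 and C/EBP, 1 fell in MV4-11, and 1 rose and 1 fell in THP-1, beside 1.13% and 1.65% of all tested genes. LYZ, which encodes lysozyme, moved in opposite directions. It read 1619, 1646 and 1855 FPKM in MV4-11 controls and 1097, 1147 and 1114 FPKM with the shCYTH4 label, a fall of 0.68 on the log2 scale (log2 -0.68, SE 0.12, edgeR adjusted p = 0.0107). In THP-1 it read 392, 304 and 297 FPKM in controls and 728, 738 and 648 FPKM with shCYTH4, a rise of 0.98 (SE 0.12, edgeR adjusted p = 0.00188; 1.06 and 2.47e-04 without replicate 3). The groups were separate in both lines, and the difference between the changes was -1.67 (SE 0.17, edgeR adjusted p = 3.19e-04). SPI1 had the same signs, lower in MV4-11 and higher in THP-1, without passing the test in either. FCGR1A, another target on the list, had the opposite signs (log2 0.34 in MV4-11, edgeR adjusted p = 0.318, and -0.71 in THP-1). The median log2 change over the 23 targets was 0.04 in MV4-11 and -0.04 in THP-1. A link between SPI1 and LYZ was not tested.

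FCGR1A, which encodes a high-affinity receptor for IgG and has close copies in the genome that make its count uncertain, fell in THP-1 from 67.7 ± 5.92 to 45.0 ± 6.83 FPKM (log2 -0.71, SE 0.15, edgeR adjusted p = 0.0331; -0.81 and 0.00632 without replicate 3), a call lost in 8 of 21 alternatives. These included leaving out replicate 2 or 3 of the MV4-11 shCYTH4 or THP-1 control libraries, or replicate 1 or 2 of THP-1 shCYTH4 (adjusted p = 0.0501 to 0.196), and a replicate block (0.0906). Of 6 tested genes repressed by GFI1, CDKN1A, the cell cycle inhibitor p21, rose in THP-1 from 14.9 ± 4.58 to 29.0 ± 2.67 FPKM (log2 0.85, SE 0.20, edgeR adjusted p = 0.0474; 0.94 and 0.0166 without replicate 3), a call lost in 11 of 21 alternatives. Among these were leaving out any library other than control replicate 2 and shCYTH4 replicate 3 of THP-1 and shCYTH4 replicate 1 of MV4-11 (adjusted p = 0.0512 to 0.196) and a replicate block (0.0738). The 13 other blood transcription factors, 5 genes tied to IRF8 and 6 tied to MYB had 0 calls in either line. Without THP-1 shCYTH4 replicate 3, 6.76% of all tested genes were called in THP-1. Calls there numbered 5 of 18 relatives (4 higher, 1 lower) and 5 of 13 other blood factors (2 higher, 3 lower). They numbered 5 of 23 PU.1 and C/EBP targets (2 higher, 3 lower), 2 of 6 MYB-linked genes (2 lower) and 3 of 6 genes repressed by GFI1 (3 higher). Partners and IRF8-linked genes had 0. In MV4-11 that setting called 3.22% of all tested genes. It called 2 of 12 partners (2 higher), 2 of 23 PU.1 and C/EBP targets (1 higher, 1 lower) and 1 of 5 IRF8-linked genes (lower). The remaining lists had 0 there. List totals were not counted with any other library left out.

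**Figure D4:**
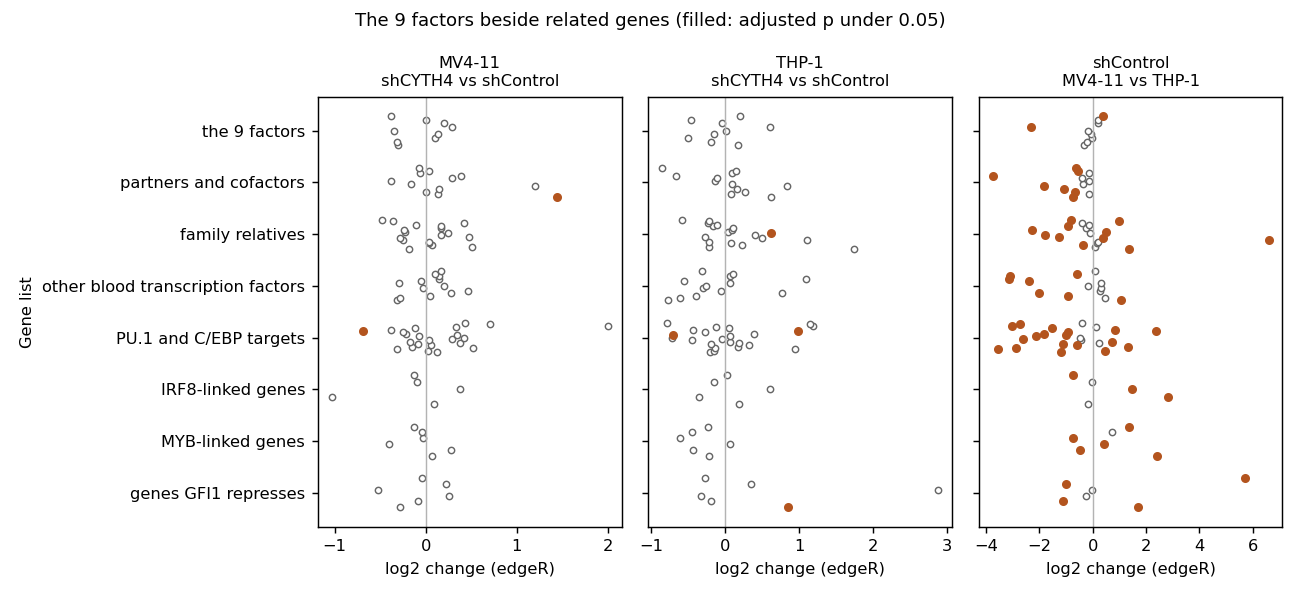
Fitted log2 changes (edgeR, all 12 libraries) of the tested genes of the 7 lists and of the 9 factors, with 1 point per gene: libraries labelled shCYTH4 against controls in MV4-11 (left) and THP-1 (middle), and MV4-11 against THP-1 in controls (right). The axes differ between panels, and filled points passed an adjusted p of 0.05: BATF3 and LYZ on the left, KLF10, LYZ, FCGR1A and CDKN1A in the middle.

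Between the control libraries of the lines, where 51.4% of all tested genes were called, 5 of 23 targets of PU.1 and C/EBP were higher and 13 lower in MV4-11, with a median log2 difference of -0.91 beside -0.01 over all tested genes. CTSG, a granule protease, was 6.06-fold lower in MV4-11 (126 ± 18.3 against 774 ± 132 FPKM), and LYZ was 5.24-fold higher. Of the partners and cofactors, 7 of 12 were lower and 0 higher, a share near that of all tested genes, and the call with the smallest p was that of JUN, a partner of PU.1 and C/EBP factors (0.837 ± 0.346 against 11.4 ± 1.97 FPKM, log2 -3.75, SE 0.26). Of the 18 tested relatives, 5 were higher and 6 lower in MV4-11. IRF4, the closest relative of IRF8, averaged 5.81 ± 0.499 FPKM in MV4-11 and 0.0605 ± 0.0263 FPKM in THP-1. Of the 6 tested genes repressed by GFI1, 2 were higher and 2 lower. MEIS1, from that list and also part of the KMT2A-fusion programme as a homeobox factor, averaged 4.48 ± 0.689 FPKM in MV4-11 and 0.0844 ± 0.0256 FPKM in THP-1. IRF4 and MEIS1 passed the filter through their MV4-11 libraries only. Of the 13 other blood transcription factors, 1 was higher and 6 lower in MV4-11. Of the 5 IRF8-linked genes 2 were higher and 1 lower, and of the 6 MYB-linked genes 3 were higher and 2 lower.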

How the data were processed

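The 12 libraries fall into 4 groups of 3 by their labels. Per the file headers, the deposited table holds an estimated count and an FPKM per gene and library; the estimated counts are whole numbers with unequal library totals. The value 4 occurs 13678 times, 3 occurs 6332 times and 5 occurs 4392 times, so 1 count need not be 1 fragment. Column names carry SC and Sh, read as shControl and shCYTH4. All 24 value columns were mapped. The tools fastp, StringTie and edgeR are named, per the submitters' processing notes. Not given in the sources used here are the aligner, the genome build, the annotation release, the FPKM denominator and whether counting used the strand.

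Estimated counts of the 12350 genes at 1 FPKM or above in 3 or more libraries were fitted with edgeR 4.0.16 (R 4.3.3; TMM factors 0.916 to 1.08, robust quasi-likelihood, 4 group means, 8 residual degrees of freedom). P-values were adjusted over all tested genes by the Benjamini-Hochberg method, and an adjusted p under 0.05 was called. Intervals are 95% and cover the spread between libraries only. A fitted log2 change rests on counts and can differ from the ratio of FPKM means. Alternatives were DESeq2 1.42.0, limma 3.58.1 on log2(FPKM + 1) or with 0.1 added, other scalings and filters, each line alone, a replicate block and leaving out each library. Ratios of SPI1 to CEBPA were compared within each line with exact permutation tests in scipy 1.17.1. The code was tested on simulated data.

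Members and lists were chosen with earlier results of these data known. By rule, the text names the 9 factors, CYTH4, up to 3 called genes of each list in each shCYTH4 comparison and up to 2 between the lines, and the 2 genes most like any factor whose group means span at least 1 on the log2 scale. CBFB, DDIT3 in THP-1 and CEBPB are outside this rule and were chosen after their values were seen. Between the lines, only some of the genes that the rule allows are named, with no further rule for that choice. Motifs were sought in RefSeq promoters (GRCh38.p14). The same replicate number did not pair samples (correlations of deviations -0.214 to 0.0945).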

Additional observations from a re-analysis of the deposited data

Results flagged for a closer look

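The change of LYZ, a target of PU.1 and C/EBP, between libraries labelled shCYTH4 and controls differed between the lines, although CYTH4 was not lower in the MV4-11 libraries so labelled: the MV4-11 change minus the THP-1 change was -1.67 on the log2 scale (SE 0.17, edgeR adjusted p = 3.19e-04), with 3 of 3 libraries below the controls in MV4-11 and 3 of 3 above them in THP-1. That of FCGR1A, from the same list, differed the other way, by 1.05 (SE 0.21, edgeR adjusted p = 0.0303), and was lost without MV4-11 control or shCYTH4 replicate 2, control replicate 2 or 3 of THP-1, or its shCYTH4 replicate 1 or 2 (adjusted p = 0.0609 to 0.0957), and with a replicate block (0.0625). The LYZ difference held in 20 of 20 alternatives. FCGR1A read 34.3, 29.6 and 37.4 FPKM in MV4-11 controls and 51.8, 42.8 and 40.8 FPKM with the shCYTH4 label, and 61.8, 67.8 and 73.7 FPKM in THP-1 controls and 39.0, 43.5 and 52.4 FPKM with shCYTH4. With all libraries, edgeR called this difference for 0 of the 9 factors, of which 2 had an unadjusted p under 0.05, and DESeq2 called it for 0.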

How the results depend on the processing

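Of 730 values of the 9 factors under alternatives, 691 kept direction and side of the threshold. The 21 that turned direction were near 0 and uncalled, with adjusted p of at least 0.866: RUNX1 in MV4-11 (-0.002482 with DESeq2, -0.0002477 with no filter, -0.001372 with the replicate block, -0.05533 to 0.06795 leaving out libraries), MYB in THP-1 (0.03226 and 0.03243 with limma, -0.3275 to 0.09436), IRF8 in THP-1 (-0.05161 to 0.1325), the CEBPD difference (-0.4014 to 0.0373), and, between lines, CEBPD (0.07153, block), CEBPE (0.03833, no filter; -0.1899 to 0.05927) and GFI1 (0.01358, no filter; 0.03347, block). Factors called in THP-1 numbered 1 with DESeq2 and 0 to 2 leaving out libraries, and in the difference 0 to 1; between lines, 1 at adjusted p under 0.01, with no filter, with at least 1 FPKM in all 12 libraries or with the block, and 1 to 2 leaving out libraries. Genes called in MV4-11 (139) became 46 at 0.01, 451 with DESeq2, 59 with the strict filter and 74 to 398 leaving out libraries. In THP-1 (204) they became 15, 611, 477 with limma and 1 added (329 higher, 148 lower, against 75 and 129), 78 in the line alone, 23 with the block and 15 to 835; for the difference (107), 14, 441, 162 with limma, 162 with no filter, 27 with the strict filter, 47 with the block and 32 to 913; between lines (6347), 4147 with the strict filter, 4071 with the block and 5398 to 6709. The replicate numbers share only a number, and the block ended the calls of SPI1 between lines (0.42, adjusted p = 0.191), CYTH4 in THP-1 and 4 list genes. The causes were not tested.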
